A study of Mus musculus with 8 samples.

Results

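The small leucine-rich proteoglycans (SLRPs) analysed here were the 10 genes Dcn, Bgn, Aspn, Lum, Fmod, Prelp, Kera, Omd, Epyc and Ogn, taken by symbol from the 31053 genes listed for each library. They were followed in 10x Genomics single-cell RNA sequencing of mouse parietal bone, a flat bone of the skull roof, at postnatal days 4 to 5. A total of 4 wild type (WT) and 4 Het G610C (Het) libraries were compared. Het animals carry 1 allele of Col1a2, the gene for the α2 chain of type I collagen, with the G610C glycine substitution, a model of osteogenesis imperfecta, and the labels give both groups the strain B6.129(FVB)-Col1a2tm1Mcbr/J. Each library held cells pooled from several pups of 1 genotype that were released by collagenase, so the library was the replicate (n) and animals within it could not be told apart. Libraries WT S1, WT S2, Het S3 and Het S4 were made with kit version 3, and WT S5, WT S6, Het S7 and Het S8 with kit version 3.1, so that kit version and cell preparation cannot be told apart from each other but are balanced over genotype.

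SLRPs are secreted proteins with a core of leucine-rich repeats, most of which bind collagen fibrils. The family members of class I (Dcn, Bgn and Aspn) carry chondroitin or dermatan sulfate chains or, in the case of Aspn, none. Class II (Lum, Fmod, Prelp, Kera and Omd) and class III (Epyc and Ogn) hold the keratan sulfate proteoglycans and their relatives. In bone, decorin and biglycan are abundant in the matrix laid down by osteoblasts, and in cartilage several members coat type II collagen fibrils.

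Osteoblasts (OBs) were cells with at least 500 genes, mitochondrial UMIs under 10%, a Col1a1 count of 10 or more, and 2 or more UMIs in at least 2 of Runx2, Sp7 and Ibsp. A UMI, or unique molecular identifier, marks 1 captured RNA molecule. Col1a1 below 0.75% of UMIs defined early OBs (eOBs), 0.75% to 3.5% differentiating OBs (dOBs) and above 3.5% mature OBs (mOBs), which gave 379, 1217 and 1075 cells over the 8 libraries, and 22 to 95, 33 to 427 and 42 to 299 cells per library. Cells that were not OBs and had Col2a1 above 1% of UMIs were taken as cartilage cells (15370 cells), and the remaining 28379 as other cells. No member entered these rules, but the stages are by construction also steps of Col1a1 content.

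Libraries held 30480239 to 85162035 UMIs in all and 3405 to 11368 kept cells each, with 12348 to 21116 UMIs in the median mOB. The 7 osteoblast markers checked (Alpl, Bglap, Bglap2, Spp1, Ifitm5, Dmp1 and Phex) were detected in the mOBs of every library and summed to 1.19% to 5.30% of UMIs. At most 24 cell barcodes were shared by a pair of libraries. In WT S1 and WT S2, haematopoietic cells (other cells with at least 3 haematopoietic markers) numbered 2525 and 2157, against 135 to 684 in the other 6. Levels are given as the percent of all UMIs of a population in a library. They are 3′ molecule counts, which are not divided by transcript length.

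Together the 10 genes took 0.445 ± 0.110% (SD, n = 8 libraries) of UMIs in eOBs, 0.717 ± 0.244% in dOBs and 0.676 ± 0.302% in mOBs. The sum was 0.636 ± 0.0873% in cartilage cells, and 1.16 ± 0.0755% (n = 4) in cells with fibroblast markers. These sums differed by kit version, at 0.308% to 0.521% in mOBs and 0.438% to 0.555% in dOBs of version 3, and 0.781% to 1.10% and 0.878% to 0.987% in those of version 3.1, while the fibroblast-marker cells were from version 3 libraries. Haematopoietic cells, taken as a type that should lack these genes, held 0.0442% ± 0.0246 (n = 8). That level served as a rough measure of free RNA captured with cells. In kit version 3 such cells held fewer UMIs each than mOBs, for example 2797766 in 684 cells against 2856964 in 192 mOBs of Het S4. As a percent of UMIs, that level can therefore exceed the free RNA of mOBs.

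**Figure D1:**
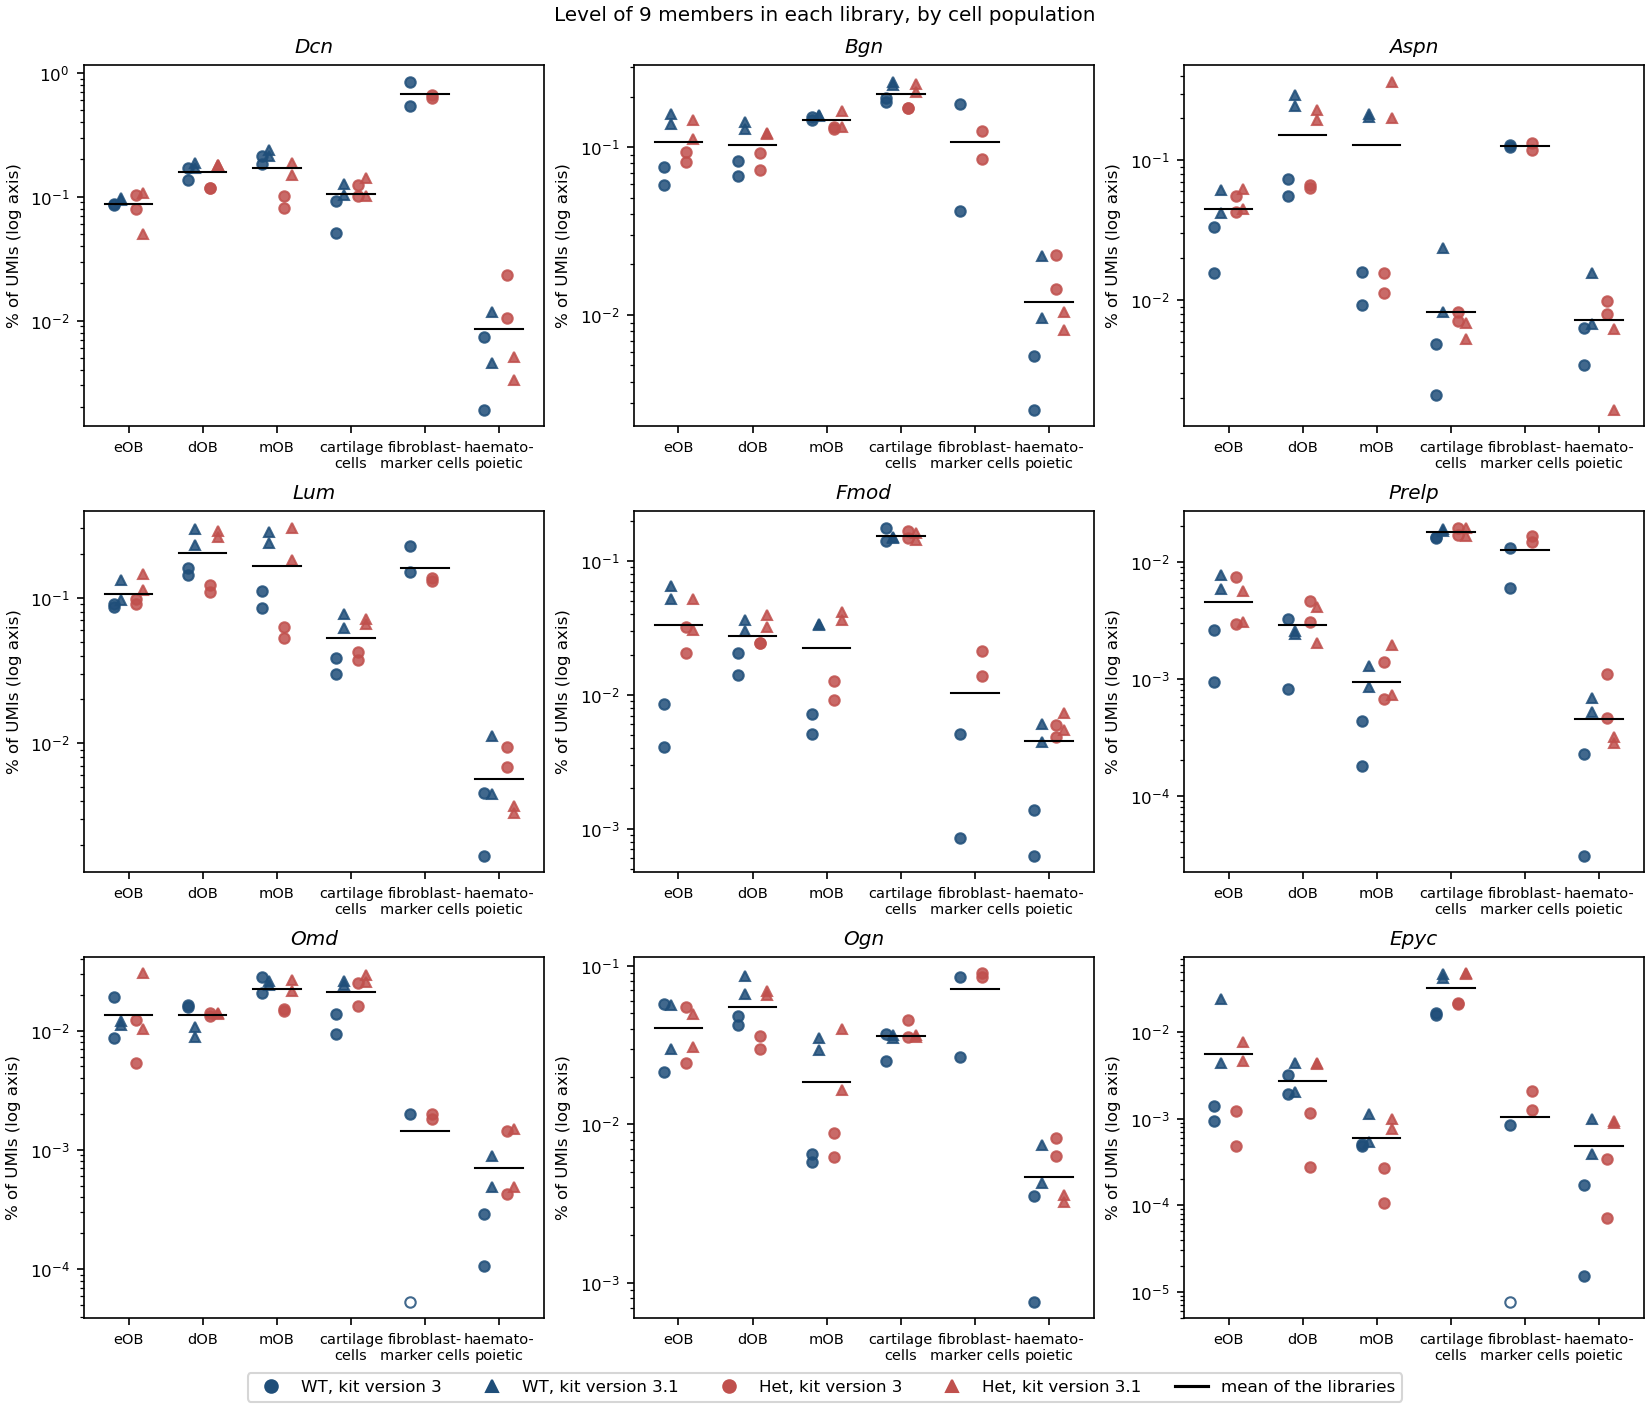
Percent of all UMIs (log axis) of the SLRP genes in the cell populations, with 1 point per library, separated by genotype and kit version. The mOB points of Aspn split by kit version, between 0.00924% and 0.0159% in version 3 and between 0.201% and 0.366% in version 3.1, and those of Lum do too, between 0.0526% and 0.111% and between 0.182% and 0.304%. Lines are means of the libraries, open symbols stand for no UMI, and fibroblast-marker cells are shown for the 4 libraries with at least 10 of them.

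Decorin, the class I proteoglycan named for its decoration of collagen fibrils, increased with maturation. Its mean level was 0.0879 ± 0.0180% of UMIs in eOBs, 0.158% in dOBs and 0.171% in mOBs (n = 8). In the fit across all genes, Dcn was higher in mOBs than in eOBs by 1.36 on the log2 scale (SE 0.164, adjusted p = 1.3e-06, edgeR's quasi-likelihood test with Benjamini-Hochberg adjustment, library as a block). Both steps passed the test, with a log2 difference of 0.92 (SE 0.162, adjusted p = 5.57e-04) from eOBs to dOBs and 0.44 (SE 0.158, adjusted p = 0.0427) from dOBs to mOBs. Within the kit versions the first step was 0.65 in version 3, which did not pass (adjusted p = 0.129), and 1.16 in version 3.1, and the second passed in neither (0.49 and 0.41, adjusted p = 0.102 and 0.14). The second step no longer passed when any 1 of the WT libraries was left out (log2 0.33 to 0.42, adjusted p = 0.0882 to 0.141). Within kit version 3 and within kit version 3.1 the log2 difference between mOBs and eOBs was 1.13 and 1.57. These fits pool the genotypes, and from dOBs to mOBs the mean Dcn level went from 0.166% to 0.212% in WT and from 0.149% to 0.131% in Het. Fitted differences are scaled by edgeR's TMM factors and can differ from the ratio of the raw percents. For Dcn the fitted difference between mOBs and eOBs is the larger, and it was 1.37 with collagen genes left out.

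Biglycan, the close relative of decorin on the X chromosome, rose from dOBs to mOBs. The Bgn level was 0.108% in eOBs, 0.103% in dOBs and 0.145% in mOBs. The fitted log2 difference at this step was 0.92 (SE 0.139, adjusted p = 4.96e-05), whereas from eOBs to dOBs it was 0.04 and did not pass the test. The rise from eOBs to mOBs was steeper in kit version 3 (1.35) than in kit version 3.1 (0.52), and the difference of version 3.1 minus version 3, −0.91, passed its own test (SE 0.175, adjusted p = 0.00345).

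Across the 3 stages, 9 of the 10 members could be tested, Kera being too low. Between mOBs and eOBs, 7 of these 9 passed the test, against 35.5% of all 9991 genes tested. Dcn, Bgn, Lum and Omd were higher and Prelp, Epyc and Ogn lower in mOBs. Between mOBs and dOBs the number was 6 (background 28.3%), and between dOBs and eOBs 4 (background 14%). At the earlier step the called members were Dcn, Aspn and Lum, which were higher in dOBs, and Prelp, which was lower. The Aspn call was lost without WT S2, WT S5, WT S6 or Het S8 (log2 1.37 to 1.46, adjusted p = 0.061 to 0.0759), and the Prelp call without WT S5 (−0.58, adjusted p = 0.12) or WT S6 (−0.67, adjusted p = 0.101).

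**Figure D2:**
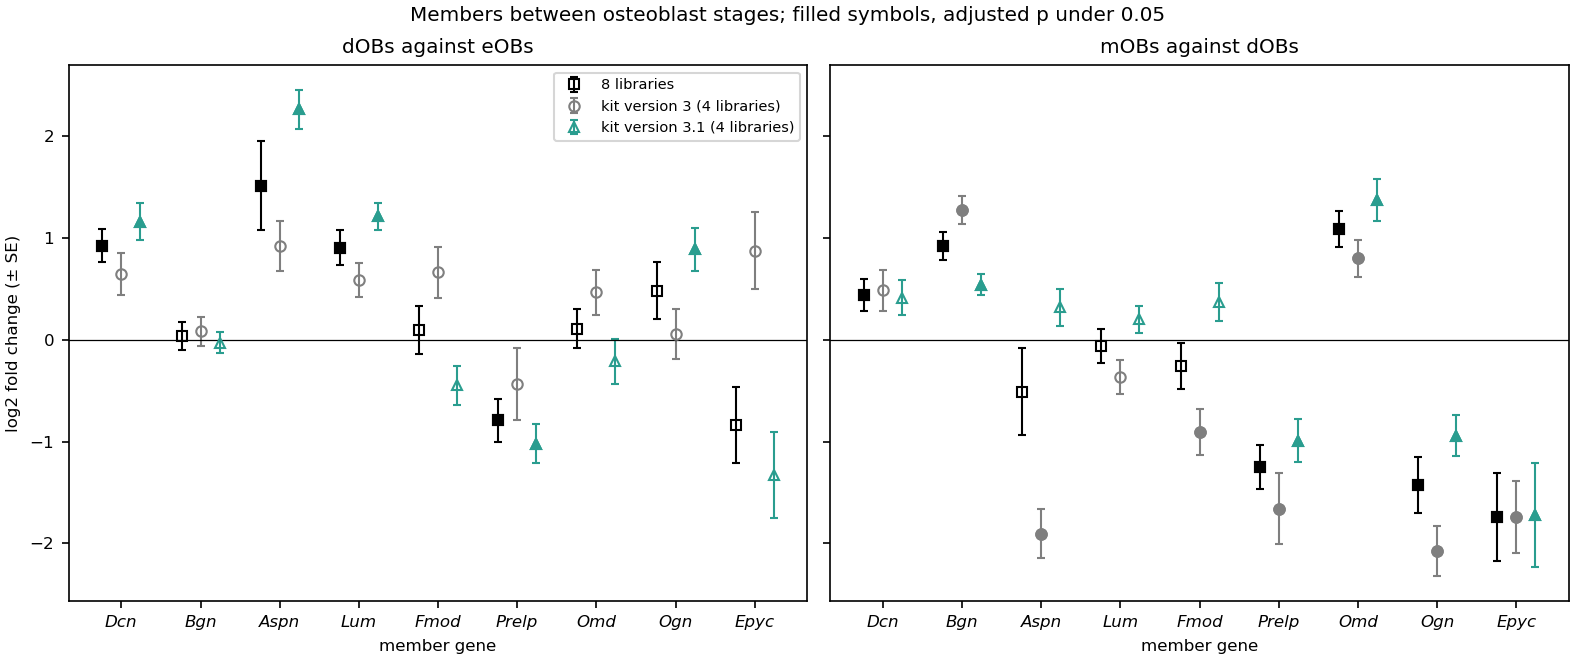
Fitted log2 fold changes (± SE) of 9 SLRP genes for dOBs against eOBs (left) and mOBs against dOBs (right), over all 8 libraries (squares) and within each kit version (circles, version 3; triangles, version 3.1), with filled symbols where the adjusted p was under 0.05. In the right panel Bgn and Omd lie above 0 and Prelp, Ogn and Epyc below 0 in all 3 fits, whereas Aspn is at −1.90 in kit version 3 and 0.32 in kit version 3.1.

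Lumican, a class II keratan sulfate proteoglycan that regulates fibril diameter, rose at the first step. Lum was at 0.107% in eOBs, 0.202% in dOBs and 0.165% in mOBs, with a log2 difference of 0.90 (SE 0.172, adjusted p = 0.00117) from eOBs to dOBs and −0.06 from dOBs to mOBs. The first step was 0.59 in kit version 3, which did not pass (adjusted p = 0.0898), and 1.21 in kit version 3.1. Between eOBs and mOBs Lum gave 0.22 in kit version 3, which did not pass (adjusted p = 0.38), and 1.41 in kit version 3.1. The kit by stage term of 1.12 passed its test (SE 0.231, adjusted p = 0.00541).

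Osteomodulin (osteoadherin), the class II member known from mineralised tissue, rose from dOBs to mOBs. Omd took 0.0136% of UMIs in eOBs, 0.0134% in dOBs and 0.0221% in mOBs. Its log2 difference between mOBs and dOBs was 1.09 (SE 0.176, adjusted p = 1.01e-04), and that between dOBs and eOBs was 0.11. The rise from eOBs to mOBs was 1.27 in kit version 3 and 1.16 in kit version 3.1.

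Osteoglycin (mimecan) of class III, whose gene lies next to Omd, fell at that step. The Ogn level was 0.0406% in eOBs, 0.0551% in dOBs and 0.0185% in mOBs, and the fall from dOBs to mOBs was −1.43 on the log2 scale (SE 0.275, adjusted p = 5.64e-04). Between mOBs and eOBs the difference was −0.95 (SE 0.287, adjusted p = 0.0136), and it no longer passed without WT S1 (−0.67, adjusted p = 0.0619) or Het S3 (−0.76, adjusted p = 0.0554). This last difference was −2.02 in kit version 3 but −0.05 in kit version 3.1, and the kit versions differed by 1.90 (SE 0.372, adjusted p = 0.00395). In kit version 3 the Ogn level of mOBs, 0.00582% to 0.00879%, was near or above that of haematopoietic cells, 0.000763% to 0.00820%.

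Asporin, the class I member with a run of aspartate residues and no glycosaminoglycan attachment site, had the largest fitted difference between kit versions among the members in dOBs and mOBs, though not in eOBs, where that of Epyc was larger. In eOBs Aspn was at 0.0156% to 0.0555% of UMIs in kit version 3 and 0.0421% to 0.0624% in kit version 3.1, so the ranges overlapped. In dOBs the ranges were 0.0559% to 0.0733% and 0.195% to 0.292%. In mOBs Aspn was at 0.00924% in WT S1, 0.0159% in WT S2, 0.0157% in Het S3 and 0.0112% in Het S4, but at 0.216% in WT S5, 0.203% in WT S6, 0.366% in Het S7 and 0.201% in Het S8. No mOB library of 1 kit version thus approached those of the other. Haematopoietic cells of the same 4 kit version 3 libraries held Aspn at 0.00637%, 0.00343%, 0.00978% and 0.00797% of UMIs, below the mOBs of each.

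As a result, the stage course of Aspn had no single direction. Between mOBs and eOBs it was −0.99 (SE 0.251, adjusted p = 0.00896) in kit version 3 and 2.58 (SE 0.194, adjusted p = 2e-06) in kit version 3.1. Pooled over the 8 libraries the log2 difference was 1.01 and did not pass (adjusted p = 0.101), although it did without WT S1, Het S3 or Het S4 (1.33 to 1.36, adjusted p = 0.0317 to 0.0353). The kit by stage difference of 3.5 passed its test (SE 0.349, adjusted p = 3.32e-06), as it did for 5.76% of all genes, and for mOBs against dOBs the difference of 2.15 did too (SE 0.331, adjusted p = 0.00252, background 0.608%). The step from eOBs to dOBs was 0.92 in kit version 3, where it did not pass (adjusted p = 0.067), and 2.27 in kit version 3.1.

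Between the kit versions within mOBs, 4 of the 8 members tested were called, against a background of 58.1% of genes. Aspn was 14.0-fold higher in kit version 3.1 (log2 3.81, SE 0.227), and Lum, Fmod and Ogn were higher by 1.31, 1.72 and 1.74 on the log2 scale. Markers of cartilage moved with the kit version as well: 8 chondrocyte markers summed to 0.00300% to 0.0689% of UMIs in mOBs of kit version 3 and 0.103% to 0.264% in those of kit version 3.1, and to 0.0025% to 0.297% and 1.08% to 2.77% in eOBs. Their part in these differences was not tested.

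Fibromodulin, prolargin and epiphycan, members best known from cartilage and tendon, did not pass as higher at any later OB stage. Fmod was at 0.0331% in eOBs and 0.0223% in mOBs, with a log2 difference of −0.15 that did not pass the test (adjusted p = 0.661). Between mOBs and dOBs Fmod was −0.91 in kit version 3, which passed (SE 0.225, adjusted p = 0.00877). In kit version 3.1 it was 0.37, which did not (adjusted p = 0.226). Prelp was lower in mOBs than in eOBs by −2.04 (SE 0.233, adjusted p = 6.71e-07) and Epyc by −2.58 (SE 0.447, adjusted p = 1.09e-04). For Epyc the difference was −0.86 in kit version 3, which did not pass (adjusted p = 0.167), −3.05 in kit version 3.1 and −1.60 without WT S5, whose eOBs held 312 of the 458 Epyc UMIs of all eOBs. In mOBs thinned to 2000 UMIs, Prelp was detected in 0% to 2.44% and Epyc in 0% to 2.05% of cells per library. In haematopoietic cells of the same depth these shares were 0% to 1.89% and 0% to 3.85%. Prelp was found in a larger share of mOBs than of haematopoietic cells in 5 of 8 libraries and Epyc in 3 of 8. The mOB shares thus did not stand apart from those of haematopoietic cells.

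Cells rich in Col2a1 bore on the last of these results. Of the OBs, 1 to 2 per library in kit version 3 and 10 to 114 in kit version 3.1 had Col2a1 above 1% of UMIs. Without them the Epyc difference between mOBs and eOBs was −0.65 and no longer passed (adjusted p = 0.147), and that of Prelp was −1.17 (adjusted p = 0.00602). The Prelp difference between dOBs and eOBs became −0.13 (adjusted p = 0.846) from −0.79. Those of Dcn, Bgn, Lum, Omd and Ogn between mOBs and eOBs stayed past the threshold.

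Keratocan (Kera), the class II proteoglycan of the cornea, was nearly absent. A single UMI was found in the 2671 OBs, in the eOBs of Het S7, and none in dOBs and mOBs. Cartilage cells held 32 Kera UMIs and other cells 44. Of the members in its cluster on chromosome 10, Dcn and Lum were among the most abundant in the same cells, whereas Epyc was low (0.00220% of UMIs in OBs).

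Of the members 9 lie in clusters. In GRCm38, Dcn (chr10:97479609-97518143), Lum (chr10:97565128-97572703), Kera (chr10:97606879-97613692) and Epyc (chr10:97644068-97682454) follow each other on the plus strand over 202 kb with no other protein-coding gene between them. Aspn (chr13:49544443-49567565), Omd (chr13:49582462-49592822) and Ogn (chr13:49608046-49624501) follow Ecm2 within 119.7 kb, where Cenpp overlaps them on the other strand. Prelp (chr1:133910304-133921414) and Fmod (chr1:134037254-134048277) are neighbours, and Bgn (chrX:73483602-73495933) stands alone. Between dOBs and mOBs the neighbours Omd and Ogn changed in opposite directions, and the Aspn value depended on kit version.

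The 250 bases before the annotated starts of the 3 chromosome 13 neighbours are shown because these adjacent genes differed in the sign of their stage changes. The sequences are from RefSeq for GRCm38.p6, plus strand, 5′ to 3′, with matches to 4 motifs in capitals (TATAAA, the RUNX core TGTGGT, the homeodomain core TAATTA and the GC box GGGCGG, each on both strands), and lie at chr13:49544193-49544442 for Aspn, chr13:49582212-49582461 for Omd and chr13:49607765-49608014 for Ogn.
Aspn: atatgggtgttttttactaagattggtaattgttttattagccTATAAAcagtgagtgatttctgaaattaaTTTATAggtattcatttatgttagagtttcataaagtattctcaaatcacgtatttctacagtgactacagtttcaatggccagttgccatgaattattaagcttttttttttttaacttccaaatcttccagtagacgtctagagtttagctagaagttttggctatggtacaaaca
Omd: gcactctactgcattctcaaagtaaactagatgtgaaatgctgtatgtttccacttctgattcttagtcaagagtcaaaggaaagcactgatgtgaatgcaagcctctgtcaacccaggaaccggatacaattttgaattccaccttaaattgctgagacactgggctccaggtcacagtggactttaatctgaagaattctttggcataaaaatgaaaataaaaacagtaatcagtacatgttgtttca
Ogn: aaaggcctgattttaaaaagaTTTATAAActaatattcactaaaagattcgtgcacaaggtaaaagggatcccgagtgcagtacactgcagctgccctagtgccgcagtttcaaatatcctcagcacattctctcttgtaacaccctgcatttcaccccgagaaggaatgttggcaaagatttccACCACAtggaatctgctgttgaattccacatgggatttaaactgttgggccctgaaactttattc
Aspn held TATAAA 207 bases before its start and its reverse complement at 178 bases. Ogn held overlapping matches of TATAAA at 227 and 229 bases and a RUNX core on the minus strand at 65 bases, and Omd held no match. Of all 32851 such windows, 12.4% held TATAAA, 14.0% the RUNX core, 4.84% the homeodomain core and 32.7% the GC box. The GC content of the windows was 30.0% for Aspn, 38.4% for Omd and 42.0% for Ogn, against a median of 52.4% over all windows. Of the 10 members 8 had a window, and Bgn alone among them held GC boxes, 3 in number. Such matches describe letters and not binding.

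Within mOBs the course was resolved further by Col1a1 content. Cells with Col1a1 between 3.5% and 7% of UMIs (602 cells) were compared with those above 7% (473 cells) in each library, as a description with no test. A larger collagen share lowers the percent of every other gene by construction. Aspn was lower above 7% in 8 of 8 libraries, with a median ratio of 0.0668, and its mean went from 0.0410% to 0.00238% in kit version 3 and from 0.366% to 0.0503% in kit version 3.1. Thus the direction at the highest Col1a1 content was shared by both kit versions even though the levels were not. In kit version 3 the Aspn values above 7%, 0.000648% to 0.00447%, did not exceed those of haematopoietic cells of the same libraries. They rest on few UMIs, such as 9 in WT S1, 8 in WT S2 and 26 in Het S3.

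Ogn and Fmod had the same direction in these cells. Ogn was lower above 7% Col1a1 in 8 of 8 libraries (median ratio 0.188), Fmod in 8 of 8 (0.281) and Lum in 8 of 8 (0.607). In contrast, Omd was higher in 7 of 8 libraries (median ratio 1.39) and Bgn in 7 of 8 (1.25). Dcn was higher in 4 and lower in 4 libraries (0.966), with no common direction.

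**Figure D3:**
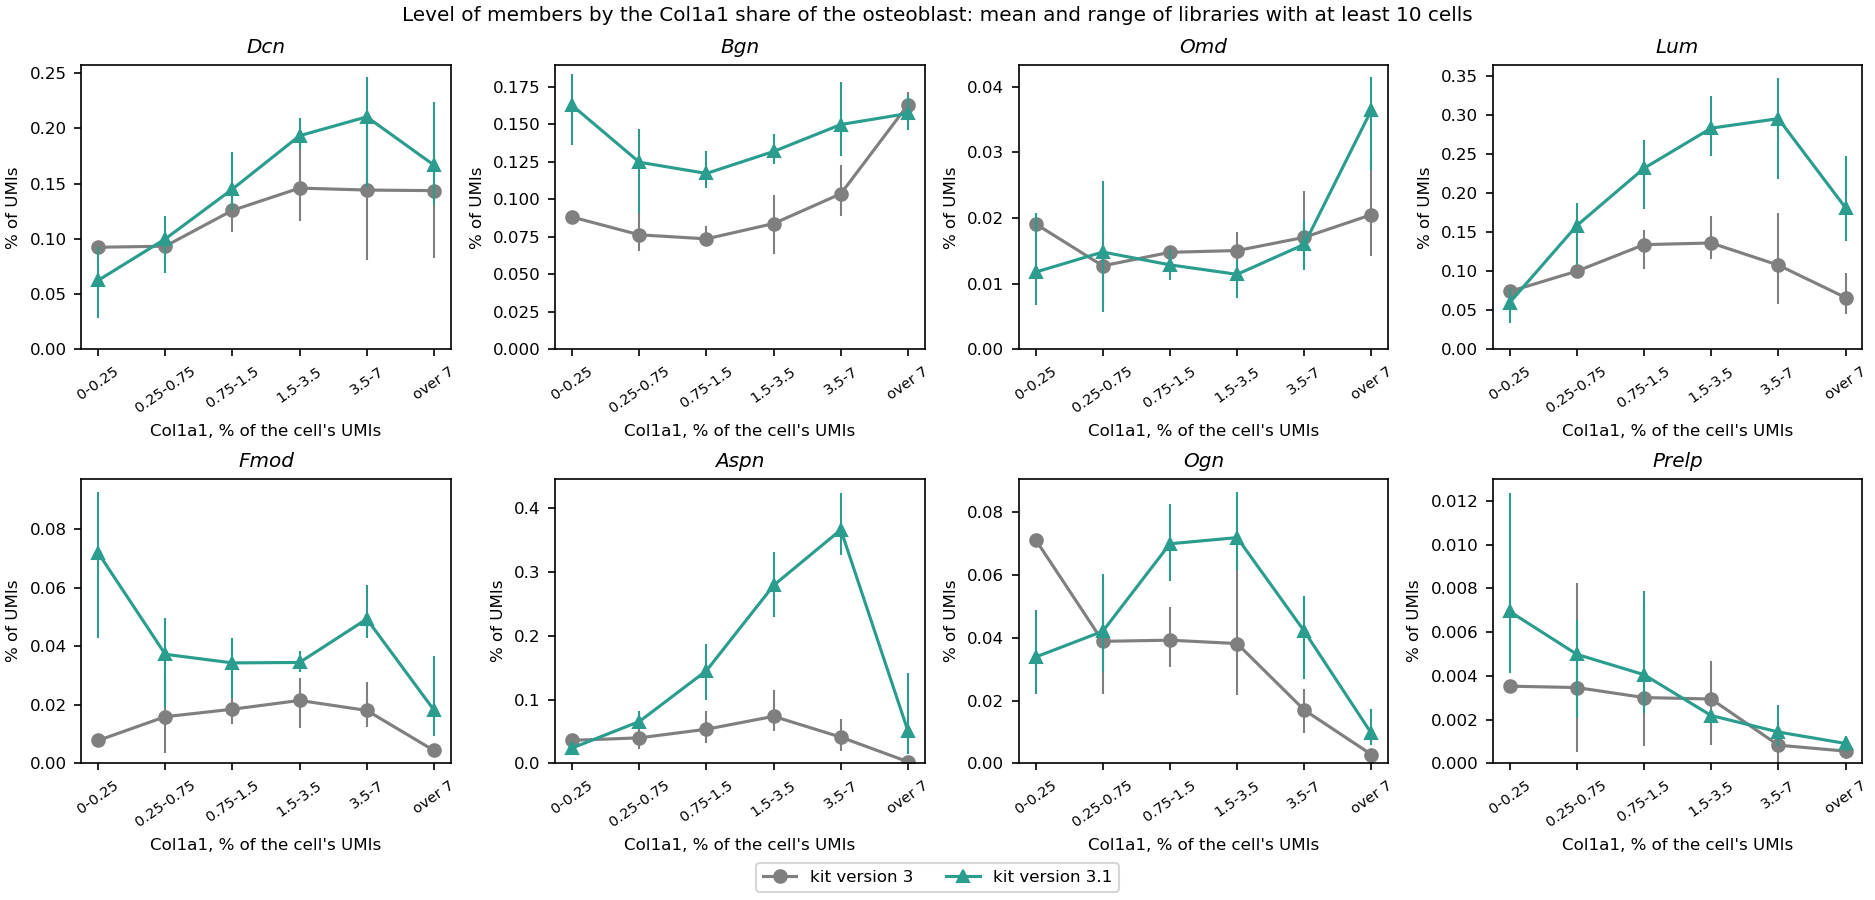
Mean percent of UMIs of 8 SLRP genes in OBs binned by the Col1a1 percent of their UMIs, with bars for the range of libraries holding at least 10 such cells, for kit version 3 (circles) and 3.1 (triangles). In the last bin (above 7%) Aspn, Ogn and Fmod lie below their values in the bin before it in both kit versions, whereas Omd lies above.

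Detection was also counted cell by cell, as a description. Among 1065 mOBs thinned to 2000 UMIs, Aspn was detected in 419, Ogn in 266 and Omd in 304. Aspn and Ogn were detected together in 209 cells, where the product of their shares within each library gives 138, a ratio of 1.52 that was above 1 in 8 of 8 libraries. Aspn and Fmod shared 244 cells against 166 (ratio 1.47, above 1 in 8 of 8). Aspn and Omd were found together in 77 cells against 122 (ratio 0.63, below 1 in 7 of 8), and Omd with Ogn in 45 against 77.8 (0.58, below 1 in 6 of 8). Several libraries of kit version 3 add few cells to these tallies. Aspn and Ogn shared 4 in WT S1, 2 in WT S2 and 2 in Het S3, against 0.658, 0.390 and 0.810. Aspn and Omd shared 1 in WT S2 against 1.01 and 2 in Het S3 against 2.33. Dcn and Bgn were detected in 903 and 958 of the 1065 mOBs.

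Detection was compared with background in haematopoietic cells. Per library, Dcn was found in 66.7% to 97.3% of thinned mOBs, against 2.77% to 17.0% of haematopoietic cells. Bgn was found in 85.4% to 94.5% against 4.32% to 24.6%, and Omd in 16.9% to 42.5% against 0% to 4.62%. Aspn, Ogn and Fmod were found in a larger share of mOBs than of haematopoietic cells in 8 of 8 libraries, at the least in 10.1% against 9.22% for Aspn in Het S3. By level, Ogn in kit version 3 was little above haematopoietic cells in some libraries, at 0.00582% of UMIs in mOBs against 0.00356% in WT S1, 0.00651% against 0.000763% in WT S2, 0.00879% against 0.00820% in Het S3 and 0.00620% against 0.00629% in Het S4. In Het S4 the Ogn percent of mOBs was thus near that of haematopoietic cells. The latter held fewer UMIs per cell there (2797766 in 684 cells, against 2856964 in 192 mOBs), so equal percents are not equal counts per cell.

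Cartilage cells had a different SLRP profile from OBs. Of 9 members tested 7 were called, against 57.8% of all genes. Aspn was 11.9-fold (log2 3.57, SE 0.383) and Lum 2.90-fold (log2 1.54) higher in OBs, and Dcn was higher by 0.51 (adjusted p = 0.0288), a call lost without any 1 of the WT libraries (0.37 to 0.51, adjusted p = 0.054 to 0.071). Epyc was 18.2-fold, Prelp 9.11-fold and Fmod 7.46-fold lower in OBs than in cartilage cells, and Bgn lower by −0.77 on the log2 scale. The sizes depended on the libraries and cells: on the log2 scale Aspn was 2.59 in kit version 3 and 4.42 in kit version 3.1, Fmod −3.64 and −2.19, and Epyc, at −4.18 in the pooled fit, −5.19 without the OBs with Col2a1 above 1%. Aspn, Fmod and Epyc passed the test in both kit versions, and Dcn did not in version 3 (0.58, adjusted p = 0.128).

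The levels show how these members divide. Fmod took 0.155% of UMIs in cartilage cells against 0.0223% in mOBs, Epyc 0.0327% against 0.000598%, and Prelp 0.0177% against 0.000937%. Bgn was at 0.207% in cartilage cells. Omd and Ogn did not pass in the pooled fit (log2 −0.33 and −0.12), and in both the kit versions went apart, with Ogn at −0.71 in kit version 3 and 0.43 in kit version 3.1, both called.

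Against cells with fibroblast markers, which were numerous enough only in the 4 libraries of kit version 3, 6 of 9 tested members were called (background 37.1%). Dcn was 4.49-fold lower in OBs than in these cells and Prelp 7.10-fold lower. Aspn (−1.81), Ogn (−1.5) and Lum (−0.54) were lower too, the last not past the threshold without Het S3 or Het S4 (adjusted p = 0.089 and 0.121). Omd alone was higher in OBs, by 10.1-fold (log2 3.34). Dcn in these fibroblast-marker cells was 0.850% of UMIs in WT S1, 0.539% in WT S2, 0.626% in Het S3 and 0.665% in Het S4, above its level in every OB stage of every library.

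Against all other cells, 5 of 9 tested members were called (background 40.3%), with Lum (1.98), Omd (1.76), Dcn (1.35) and Bgn (0.82) higher and Prelp (−0.62) lower in OBs on the log2 scale. In this mixed population fewer cells of a type and less RNA per cell cannot be told apart, and the calls other than Lum were lost in several alternatives, 2 members remaining called with kit version 3 libraries alone.

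Het was compared with WT within each population, with kit version in the model, to ask whether the collagen mutation changes SLRP expression. By edgeR no member was called in eOBs, dOBs, mOBs, cartilage cells, other cells or cells with fibroblast markers. In mOBs edgeR called 0.53% of 9623 genes, and in dOBs 0.0101%, in eOBs 0%, in cartilage cells 0.0913%, in other cells 0% and in fibroblast-marker cells 0.0486%. At an unadjusted p under 0.05 stood 4 of 8 members in mOBs (Dcn, Lum, Omd and Fmod), where 11.2% of all genes did. The number was 2 of 9 in cartilage cells (7.03% of genes) and in other cells (23.4%), and 1 of 9 in eOBs (3.82%), dOBs (7.51%) and fibroblast-marker cells (4.85%). DESeq2 called 1 member in mOBs (Dcn), where it called 1.35% of genes, and 2 in other cells, where it called 9.78%. It called 0 members in eOBs, dOBs, cartilage cells and fibroblast-marker cells, and 0.037%, 0.0406%, 0.365% and 0.068% of genes there.

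Dcn in mOBs came nearest to the threshold. Its level was 0.214% of UMIs in WT S1, 0.186% in WT S2, 0.212% in WT S5 and 0.237% in WT S6, and 0.102% in Het S3, 0.0817% in Het S4, 0.189% in Het S7 and 0.151% in Het S8. Within each kit version both Het libraries lay below both WT libraries, but across kit versions Het S7 (0.189%) exceeded WT S2 (0.186%). The 7 osteoblast markers separated the same way in mOBs, summing to 4.09% and 5.30% of UMIs in WT S1 and WT S2 and to 2.20% and 2.02% in Het S3 and Het S4. With kit version 3.1 they summed to 1.96% and 2.09% in WT S5 and WT S6 and to 1.19% and 1.46% in Het S7 and Het S8, and their part in the Dcn difference was not tested. The group means were 0.212 ± 0.0211% in WT and 0.131 ± 0.0483% in Het (SD, n = 4 each). The fitted log2 difference was −0.82 (SE 0.165, unadjusted p = 0.000322, adjusted p = 0.0574, edgeR's quasi-likelihood test).

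That difference was larger in kit version 3 (−1.19) than in kit version 3.1 (−0.46), and the kit by genotype term was 0.73 with an adjusted p of 0.267 (background 0.0861%). DESeq2 called the Dcn difference with an adjusted p of 7.46e-04. It was also called by edgeR without WT S5 (adjusted p = 0.0396), Het S7 (0.0132) or Het S8 (0.0404), whereas the adjusted p was 0.137 to 0.211 without any other library. With no kit version in the edgeR model the value was −0.80 (SE 0.254, adjusted p = 0.999991), so nearness to the threshold depended on that covariate. The 11 haematopoietic markers, of which 1 to 10 were at 0 in a library, summed highest in mOBs of WT S1 and WT S2 (0.0671% and 0.0488% of UMIs, against at most 0.0164% elsewhere), and without OBs that held markers of another class the Dcn difference was −0.88 (adjusted p = 0.0474).

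At the earlier stages the Dcn levels of the genotypes overlapped over all 8 libraries, although in dOBs of kit version 3 Het S3 (0.118%) and Het S4 (0.119%) lay below WT S1 (0.136%) and WT S2 (0.170%). In dOBs they were 0.136% to 0.187% in WT and 0.118% to 0.181% in Het, with a log2 difference of −0.19 (adjusted p = 0.728). In eOBs the ranges were 0.0850% to 0.0973% and 0.0496% to 0.107%. The test of whether the genotype difference of Dcn itself changes between stages gave −0.67 for mOBs against eOBs (adjusted p = 0.941) and −0.66 for mOBs against dOBs (adjusted p = 1.0). In either case 0% of genes were called. Of 10857 genes, 561 and 339 had an unadjusted p under 0.05, Dcn as the only member among them in both.

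**Figure D4:**
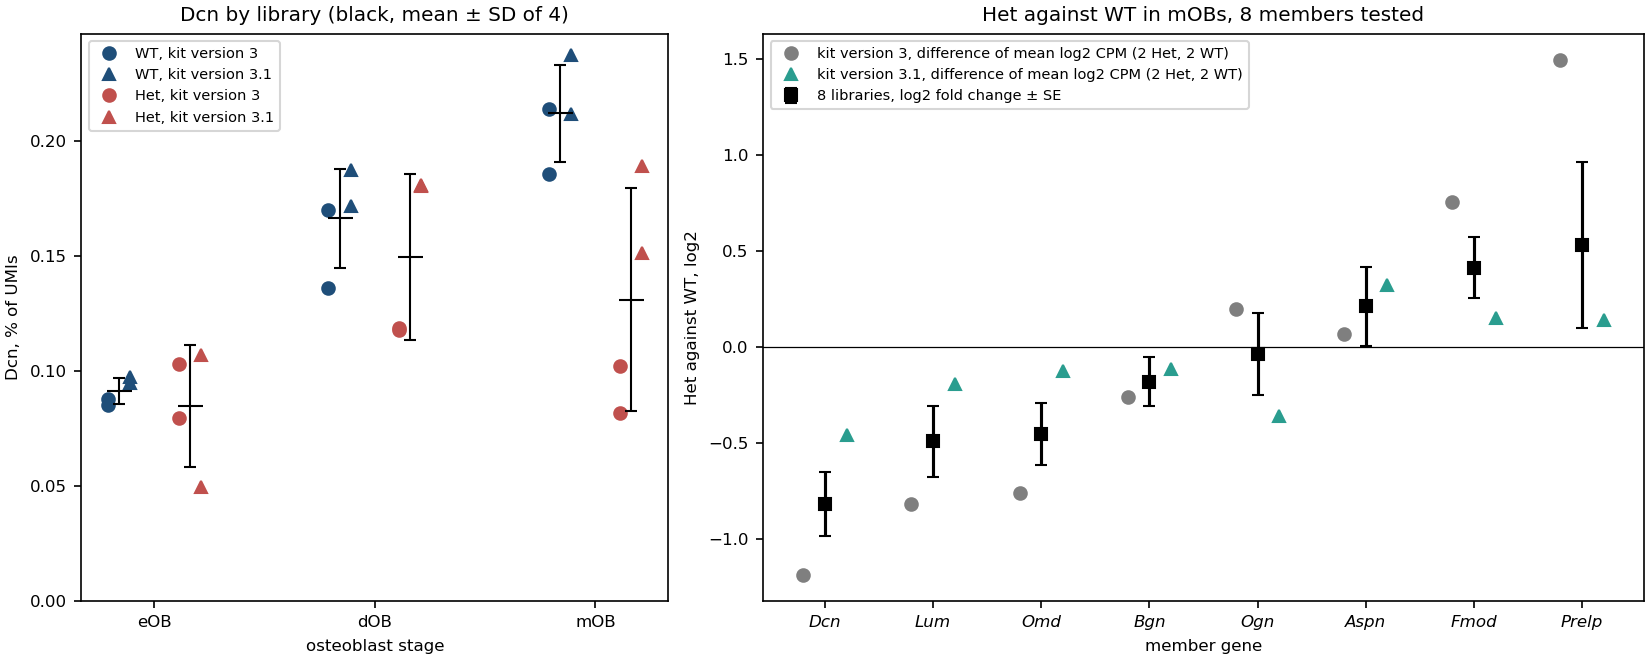
Left, Dcn percent of UMIs in each library by OB stage, with the mean and SD of 4 libraries per genotype. Right, Het against WT log2 values of 8 SLRP genes in mOBs, fitted over 8 libraries (squares, ± SE) and as differences of mean log2 CPM within kit version 3 (circles) and 3.1 (triangles). Dcn, Lum, Omd and Bgn lie below 0 and Fmod, Aspn and Prelp above 0 in both kit versions.

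The other members that rise with maturation had smaller differences in mOBs. Omd was 0.0248 ± 0.00318% in WT and 0.0194 ± 0.00559% in Het (log2 −0.45, SE 0.161, adjusted p = 0.29), and Lum gave −0.49 (SE 0.184, adjusted p = 0.316), or −0.71 without Het S7 (adjusted p = 0.0369). Bgn gave −0.18. Fmod was 0.00720%, 0.00506%, 0.0339% and 0.0333% in the WT libraries S1, S2, S5 and S6, and 0.0127%, 0.00907%, 0.0415% and 0.0360% in the Het libraries S3, S4, S7 and S8. Both Het libraries thus lay above both WT libraries within each kit version (log2 0.41, SE 0.159, adjusted p = 0.332). Haematopoietic cells of kit version 3 also held more Fmod in Het than in WT libraries, at 0.00138% and 0.000626% in WT S1 and WT S2 and 0.00599% and 0.00483% in Het S3 and Het S4. In every library they held less than the mOBs. The 8 chondrocyte markers in mOBs summed to 0.103% and 0.106% of UMIs in WT S5 and WT S6 and to 0.140% and 0.264% in Het S7 and Het S8, and to 0.00300% to 0.0689% in kit version 3. The part of either in the Fmod values was not tested. In all, Dcn (lower) and Fmod (higher) separated in the same direction within both kit versions, as 10.7% of genes did.

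Outside OBs the largest fitted Het minus WT values were those of Fmod. In cells with fibroblast markers Fmod was 0.00506% and 0.000856% in WT S1 and WT S2 and 0.0214% and 0.0138% in Het S3 and Het S4, a log2 difference of 2.03 (SE 0.442, adjusted p = 0.33) with 2 libraries per genotype. Without WT S1 it was 4.52, without WT S2 1.76 and without Het S4 2.49, each past the threshold in a fit where 1 genotype had a single library, assumed to vary like the pair of the other. The 8 chondrocyte markers summed to 0.00714% and 0.00514% of UMIs in these cells of WT S1 and WT S2 and to 0.0594% and 0.0345% in Het S3 and Het S4. At least 3 of them were found in 0.595% and 0% of the WT cells and in 18.4% and 4.95% of the Het cells, and their part in the Fmod difference was not tested. In other cells all 9 tested members had positive values, from 0.41 to 1.66, beside the excess of haematopoietic cells in WT S1 and WT S2. In cartilage cells Epyc gave 0.24 (adjusted p = 0.587) and Omd 0.44 (adjusted p = 0.652).

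The Het effect of some members differed between kit versions. In eOBs the kit by genotype term of Fmod was −2.54 (SE 0.491, adjusted p = 0.047, background 0.567%), where Het minus WT was 2.07 with kit version 3 but −0.62 with kit version 3.1. The summed chondrocyte markers in eOBs moved with it, at 0.111% and 0.00249% of UMIs in the libraries WT S1 and WT S2, below the 0.297% and 0.160% of Het S3 and Het S4, and at 2.77% and 1.90% in WT S5 and WT S6, above the 1.11% and 1.08% of Het S7 and Het S8. Their part was not tested. In other cells the term was called for 8 of 10 members, all negative, where 20.6% of genes were called.

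The 5 lists of related genes held other SLRPs, enzymes of chondroitin and dermatan sulfate chains, enzymes of keratan sulfate and tyrosine sulfation, proteases and their cofactors, and collagens that SLRPs bind. By edgeR none of their genes was called between Het and WT in any population, with 10 of 48 at an unadjusted p under 0.05 in mOBs (11.2% of all genes), 8 of 44 in eOBs (3.82%), 8 of 49 in dOBs (7.51%), 6 of 57 in cartilage cells (7.03%), 15 of 57 in other cells (23.4%) and 3 of 50 in fibroblast-marker cells (4.85%). DESeq2 called 6 of them in other cells (of 57 tested, beside 9.78% of all genes: Chad, Chadl, Ecm2, Col2a1, Csgalnact1 and B4galt4, named after their values were seen), Ecm2 in cartilage cells, Col2a1 in fibroblast-marker cells and 0 in OBs of any stage. Between mOBs and eOBs, 10 of 20 tested enzymes of chondroitin and dermatan sulfate synthesis were called, 7 higher and 3 lower (35.5% of all genes were called in this contrast), among them Ust, the uronyl 2-O-sulfotransferase, with a log2 difference of 1.05 (SE 0.142, adjusted p = 5.69e-06). Of 5 tested enzymes of keratan sulfate synthesis and tyrosine sulfation 3 were called, 1 higher (B4galt1, a galactosyltransferase, 0.69) and 2 lower. Chsy3 (0.09), Tpst1 (−0.56) and the SLRP relatives Podnl1 (−0.90) and Ecm2 (0.08) did not pass.

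Among proteases and cofactors 5 of 9 were called between mOBs and eOBs, beside the same 35.5% of all genes. Pcolce, the enhancer of procollagen C-proteinase, rose by 1.41 (SE 0.128, adjusted p = 2.93e-08), and Mmp13, a collagenase, fell by 2.02 (SE 0.435, adjusted p = 9.89e-04). In mOBs the Het minus WT values of these genes were −0.46 (adjusted p = 0.338) and −1.15 (adjusted p = 0.277). Of 10 collagens that SLRPs bind 6 were called, 5 of them higher, among which Col1a1 defines the stages. Col1a1 and Col1a2 themselves gave −0.45 (adjusted p = 0.398) and −0.55 (adjusted p = 0.271) for Het against WT in mOBs.

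The genes most like each member were sought by Pearson correlation over 36 library sums of all populations, which share libraries and depth, among 9056 genes. Aspn was closest to Igsf10 (r = 0.975), Postn (0.942) and Ptn (0.937), and Lum to Postn (0.926) and Aspn (0.923). Fmod was closest to the cartilage genes Acan (0.930), Hapln1 (0.929) and Col9a2 (0.928). Bgn was closest to Fbln7 (0.870), Omd to Sort1 (0.873), Ogn to Osbpl1a (0.881), Epyc to Efcab1 (0.916) and Dcn to Dpt (0.839), a matrix gene that was among the fibroblast markers. Kera was under the minimum level for this comparison.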

How the data were processed

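Cells of parietal bone from mice at postnatal days 4 to 5 were captured on the 10x Genomics platform. The authors deposited UMI counts per gene and cell barcode, which are raw counts made with Cell Ranger on the mm10 genome (per the labels' processing notes), for 8 libraries pooled from several animals each. The version and the handling of doublets are not given in the sources used here.

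UMIs were summed per library and population after the cell filters given with the results, libraries with fewer than 10 cells of a population being left out. Cells of 1 library are not replicates. Cells with fibroblast or haematopoietic markers were other cells with at least 3 markers of that class. Genes passing filterByExpr were fitted with edgeR's quasi-likelihood test (edgeR 4.0.16, limma 3.58.1, R 4.3.3) with TMM scaling, kit version as covariate for Het against WT and library as block for stages and populations, and called at a Benjamini-Hochberg adjusted p under 0.05 over all tested genes. DESeq2 1.42.0, other scalings, filters, cell selections and left-out libraries were alternatives. The separate kit versions and the kit by stage and kit by genotype terms were chosen after seeing the data. Detection used cells thinned to 2000 UMIs. The edgeR script was tested on simulated data. Counting error adds to the spread of libraries for members with few UMIs, such as Prelp in mOBs (3 to 57 UMIs per library) and Kera.

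The members and gene lists were chosen with earlier results of these data known. All 10 members are named. From each list the genes called in Het against WT mOBs were to be named, and otherwise the 2 of highest mean level in OBs. Whether libraries share animals is not stated, so p-values measure the spread between these libraries. Titles number the libraries 1 and 2 within each genotype and kit version, but nothing ties equal numbers to a shared litter or day. Gene positions are from the GENCODE M21 annotation of GRCm38, matched by gene ID, and upstream windows and clusters from RefSeq for GRCm38.p6.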

Additional observations from a re-analysis of the deposited data

Results flagged for a closer look

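In 5 of 93 groups of 4 libraries tested, 1 library stood apart by Dixon's criterion (a gap over 0.829 of the range), and chance gives about 1 in 20. Bgn in mOBs of Het S8 was at 0.164% of UMIs, against 0.127% to 0.132% in the other Het libraries. Epyc was at 0.0243% in eOBs of WT S5 (others 0.000934% to 0.00440%) and at 0.00114% in mOBs of WT S6 (others 0.000480% to 0.000540%). In cartilage cells Kera was at 3.33e-05% in Het S7 (13 UMIs; the other Het libraries 1.60e-05% to 1.87e-05%, from 1, 1 and 7 UMIs) and Ogn at 0.0453% in Het S4 (others 0.0354% to 0.0368%).

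The Het against WT difference itself differed between the kit versions, by a tested interaction, for Fmod in eOBs (log2 −2.54, SE 0.491, adjusted p = 0.047). Chondrocyte markers in eOBs summed to 0.00249% and 0.111% of UMIs in WT and 0.160% and 0.297% in Het with kit version 3, and to 1.90% and 2.77% in WT and 1.08% and 1.11% in Het with version 3.1, and their part was not tested. In other cells it differed for 8 of 10 members, as for 20.6% of all genes: Fmod (−2.64), Ogn (−2.40), Aspn (−2.39), Bgn (−2.25), Lum (−2.23), Prelp (−2.18), Omd (−1.85) and Kera (−5.90, from 44 UMIs in all). The numbers of haematopoietic cells in WT S1 and WT S2 (2525 and 2157, against 135 to 684 elsewhere) go with these values, and their part was not tested.

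Stage changes differed between kit versions for Aspn, by 3.5 on the log2 scale between mOBs and eOBs (SE 0.349) and 2.15 between mOBs and dOBs (SE 0.331). They differed for Bgn by −0.91 and −0.80 in the same contrasts, and between mOBs and eOBs for Lum by 1.12 and for Ogn by 1.90. Kit version and cell preparation cannot be told apart. The chondrocyte-marker content was also larger in the version 3.1 libraries, and its part was not tested. Cartilage cells held Aspn at 0.00829%, Bgn at 0.207%, Lum at 0.0530% and Ogn at 0.0359% of UMIs.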

How the results depend on the processing

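Across the alternatives, 253 of 281 counts of called members stayed within 1.5 times the main count. Between Het and WT in mOBs (main 0) the count was 1 with mitochondrial UMIs under 5%, after thinning to 2000 UMIs, without OBs holding markers of another class, with collagen genes left out and by DESeq2, 3 with no low-count filter, and 0 to 2 when 1 library was left out. It was 1 in eOBs with no low-count filter and 2 in other cells by DESeq2. In fibroblast-marker cells it was 1 after thinning or with no low-count filter and 0 to 2 when 1 library was left out. The count of 4 between dOBs and eOBs became 0 with kit version 3 alone and 2 to 5 with 1 library left out. That of 5 between OBs and other cells became 1 with mitochondrial UMIs under 5%, 2 with kit version 3 alone and 2 to 5 with 1 library left out.

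Signs changed for few values. In mOBs, the Het against WT value of Aspn was −0.21 after thinning and between −0.014 and 0.41 with 1 library left out. That of Ogn was 0.39 with looser and 0.10 with stricter OB selection, 0.42 with other stage limits and −0.29 to 0.19 with 1 library left out. Prelp between OBs and other cells was 0.20 with looser OB selection. Aspn was 0.32 between mOBs and dOBs with kit version 3.1 alone and −0.99 between mOBs and eOBs with kit version 3 alone. The cause was not tested.

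A replicate block of kit version and title number gave 0 called members in all 6 Het against WT comparisons and a Dcn value of −0.82 in mOBs (adjusted p = 0.147). Over the tested genes, deviations of equally numbered libraries correlated by −0.0496 in kit version 3 and −0.0279 in version 3.1 in mOBs, and by −0.124 to 0.149 over all populations and kit versions, so the numbers were not taken to pair the libraries. The 22 to 95 eOBs per library limit what that stage can show.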
